A study of Mus musculus with 30 samples.

Results

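The MMP, ADAM and ADAMTS genes examined here are 35 of the 49315 genes in a count table of mouse hippocampus. They are 7 matrix metalloproteinases (Mmp), 11 disintegrin and metalloproteinase genes (Adam), 15 secreted relatives with thrombospondin repeats (Adamts) and 2 ADAMTS-like genes (Adamtsl). Membership was set by gene symbol, and no measured value enters the rule. The list was nevertheless chosen with earlier results of these data known, and it does not cover whole families. Mmp2, Mmp9 and Mmp14, for example, are not members. The mice were C57BL/6J, 13 of them TIMP2 knockout (KO; 6 males and 7 females) and 17 wildtype (WT; 10 males and 7 females), and the study's methods give age ranges for its mice as a whole without saying which applied to those sequenced. The KO line came from the Jackson Laboratory and is not the line with neuron-specific deletion that the study also used, the methods name littermates as controls, and poly(A) RNA of whole hippocampus was sequenced once per mouse. Mice are called by the number in their labels.

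Metalloproteinases of these families hold a zinc ion in the active site and cut proteins of the cell surface and the extracellular matrix. MMPs cut matrix and membrane proteins, ADAMs release the outer parts of membrane proteins, and several ADAMTS proteases cut the proteoglycans that surround neurons. TIMP2 is one of a small family of secreted proteins that block MMPs, and it also takes part in the activation of MMP2 on the cell surface. The comparison asked whether RNA of the other proteases differed in hippocampus that lacks TIMP2. In bulk tissue, fewer cells of a type and less RNA per cell cannot be told apart.

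The zinc site is printed first because it separates the enzymes from the members that lack one. The longest coding transcript of each gene on GRCm38 was translated and searched for a run of 11 residues. The run had a histidine at residues 1, 5 and 11 and a glutamate at residue 2, and any residue was allowed elsewhere. It was found in 30 of 35 members, in all 7 MMPs, 8 of 11 ADAMs, 15 of 15 ADAMTS genes and 0 of 2 ADAMTS-like genes. It was not found in Adam11, Adam22, Adam23, Adamtsl1 and Adamtsl4. The coding bases of the site are given for the members whose values are described in full, from 5′ to 3′ on the coding strand, with the 3 histidine codons in capitals.
Mmp17: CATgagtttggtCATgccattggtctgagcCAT
Mmp24: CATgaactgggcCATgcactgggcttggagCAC
Mmp15: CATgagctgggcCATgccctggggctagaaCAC
Adam10: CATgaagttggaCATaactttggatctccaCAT
Adam9: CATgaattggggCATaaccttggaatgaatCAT
Adamts1: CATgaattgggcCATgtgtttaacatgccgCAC
Adamts4: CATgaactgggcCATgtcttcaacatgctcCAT
Adamts3: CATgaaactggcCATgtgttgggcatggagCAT
Adamts8: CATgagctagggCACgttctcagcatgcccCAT
Adamts16: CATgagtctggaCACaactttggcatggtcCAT

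Within the MMPs shown, the site lay in exon 5, on the plus strand at chr5:129596597-129596629 for Mmp17, chr2:155807427-155807459 for Mmp24 and chr8:95368585-95368617 for Mmp15. The Adam9 site lay in exon 11 on the minus strand at chr8:24990326-24990358. In the other members shown the site was interrupted by an intron, so that it ran over chr9:70754296-70761585 on the plus strand in Adam10 and over chr9:30952721-30953378 on the plus strand in Adamts8. Residue 8 was encoded as glycine in 24 members, asparagine in 5 (Adamts1, Adamts4, Adamts9, Adamts15 and Adamts20) and serine in 1, Adamts8.

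Between 18345517 and 41081083 reads were counted on genes in KO mice and between 19445246 and 32098386 in WT mice. Timp2 itself, the targeted gene, lay at a lowest, median and highest level of 130, 161 and 171 CPM (counts scaled to library size) in KO and 256, 333 and 380 in WT mice. All KO mice were below all WT mice, with a log2 fold change of -0.999 (SE 0.053; adjusted p = 7.62e-16, edgeR's quasi-likelihood test over 16486 genes). Reads on Timp2 remained in every KO mouse, at 2980 to 6682 counts, and the counts are per gene, so that reads inside and outside the deleted part could not be told apart. Each library thus matched its label in direction, and the completeness of the deletion could not be measured from these counts. At the protein level, the study reports by immunoblot that interstitial fluid of KO hippocampus lacked the TIMP2 band. Neuron markers were present in every mouse, with a summed level of 6230 to 6960 CPM in KO and 6030 to 6830 in WT mice. The choroid plexus lies beside the hippocampus. Of its 10 markers 5 were tested, and 4 of these were higher in KO at an unadjusted p under 0.05. Their summed level had medians of 41.6 CPM in KO and 37.5 in WT mice. It reached 731 CPM in mouse 11, a KO female, against 28.3 to 69.7 in WT mice. KO mice 5, 1 and 20 had 172, 127 and 106 CPM, and the other KO mice lay within the WT range. Of 12 immediate early genes, 10 were higher in KO at the same threshold (summed median 542 CPM in KO and 386 in WT mice), and 5 of 5 dentate granule cell markers were lower (420 and 445).

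The 35 members covered a wide range of expression. Levels of different genes are compared as CPM per kilobase of exon, averaged over all 30 mice. Exon length was the union over all annotated transcripts of a gene, at 14.35 kilobases for Adam22, 17.91 for Adam23 and 4.91 for Adam10. In CPM without this division, Adam22 (182) and Adam23 (139) stood above Adam10 (108), so the order given below depends on the length used. Mmp17, a protease tethered to the membrane by a lipid anchor, was highest at 42.1 ± 2.66 CPM per kilobase (SD, n = 30), followed by Adam11 at 40.5 ± 2.38. Adam11 is one of the 3 ADAMs without the zinc site and is made mainly by neurons. Ranges of these 2 genes overlapped, and Mmp17 was the higher in 22 of 30 mice.

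Below them came Adam10, the main protease that sheds APP and N-cadherin in neurons, at 22.0 ± 0.956 CPM per kilobase. It lay below Adam11 and above Adam9 (14.3 ± 0.898), another sheddase, in 30 of 30 mice, and neither pair of ranges overlapped. Adam22, at 12.7 ± 0.773, and Adam23, at 7.78 ± 0.488, encode receptors of the secreted protein LGI1 at synapses and also lack the zinc site. Mmp24, a membrane-type MMP of neurons, at 10.8 ± 0.516, and Adam15, at 10.5 ± 0.553, did not differ beyond their spread, since Mmp24 was the higher in 18 of 30 mice.

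The ADAMTS genes began lower. Adamts1 and Adamts4, which both cut the proteoglycans aggrecan, brevican and versican, stood at 3.86 ± 0.486 and 3.48 ± 0.430 CPM per kilobase, with overlapping ranges. Adamts3, a procollagen protease that also cuts reelin, was at 2.22 ± 0.251. Between them lay the membrane-type proteases Mmp15 (3.40 ± 0.308) and Mmp16 (3.2 ± 0.282).

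Adam17, which sheds TNF and several growth factors, was at 1.94 ± 0.120 CPM per kilobase, and Adam19 at 1.93 ± 0.188 could not be separated from it. The remaining 20 members lay between 1.17 (Adamts20) and 0.00298 (Adamts19). Of 34 neighbouring pairs in this order, 6 had ranges that did not overlap, and 8 kept the same order in every mouse. Adamts19, with 0 to 5 counts per mouse, and Adam33, with 3 to 24, were the 2 members removed by the filter on low counts.

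**Figure D1:**
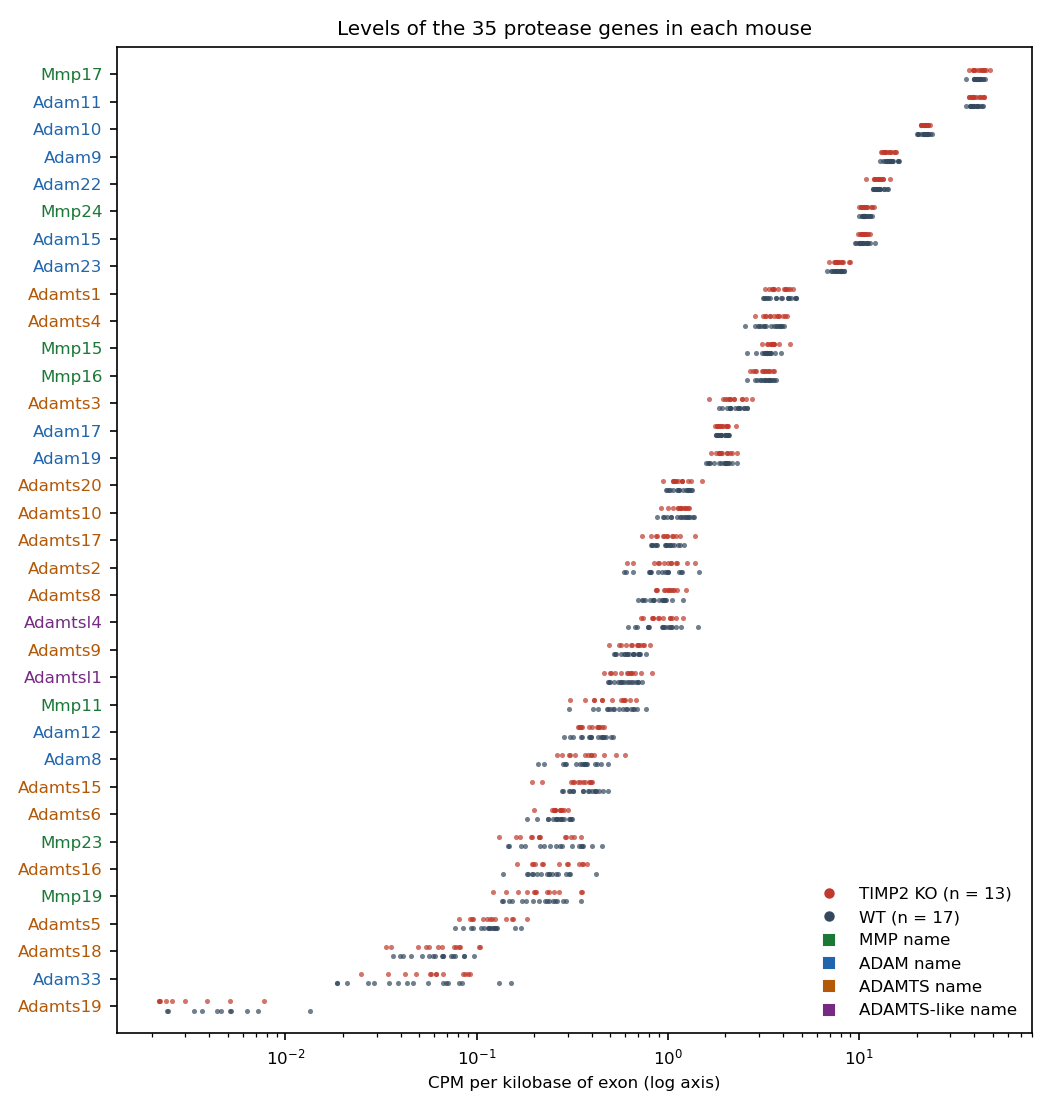
Level of each of the 35 members in each mouse, in CPM per kilobase of exon on a log axis, with KO mice above WT mice in each row and gene names coloured by family. KO and WT points overlap in each row, from Mmp17 at a mean of 42.1 to Adamts19 at 0.00298; the 4 KO and 6 WT mice with no Adamts19 count cannot be drawn on a log axis.

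Summed per kilobase, the ADAM genes held 58.9% ± 0.846 (SD, n = 30) of the level of the 35 genes. MMP genes held 31.6% ± 0.984, ADAMTS genes 8.63% ± 0.437 and the ADAMTS-like pair 0.808% ± 0.117. The sums differed between genotypes by less than the spread between mice in each family. MMP genes summed to 61.0 ± 3.36 CPM per kilobase in KO (n = 13) and 60.0 ± 2.35 in WT mice (n = 17), and ADAMTS genes to 16.6 ± 0.791 and 16.3 ± 0.748.

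TIMP2 KO and WT hippocampi showed few differences in these genes. Of the 33 members tested, 2 had an unadjusted p under 0.05 (6.06%), against 5.03% of all 16486 genes tested, so the share among the members was near the background. Both, Adamts8 and Mmp15, were higher in KO. After Benjamini-Hochberg adjustment over all genes, edgeR called 0 members, and DESeq2 also called 0 after adjustment and 2 before it, against 0.0546% of all genes called by edgeR after adjustment. The median log2 fold change was 0.008 over the members and 0.000 over all genes, and the median absolute value was 0.031 for both. Fold changes were above 0 for 22 members and below 0 for 11 (66.7% above 0, against 50.2% of all genes), and KO and WT ranges overlapped for all 33.

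Adamts8 (ENSMUSG00000031994, chr9:30942562-30963838, plus strand) encodes a secreted protease that can cut aggrecan. Its lowest, median and highest levels were 3.99, 4.64 and 5.70 CPM in KO and 3.22, 4.12 and 5.54 CPM in WT mice, from 72 to 192 counts per mouse. Among the KO mice 10 of 13 lay above the WT median and 1 above the highest WT mouse, while 8 of 17 WT mice lay below the lowest KO mouse. The means were 4.65 ± 0.488 and 4.11 ± 0.596 CPM (SD), a log2 fold change of 0.18 (SE 0.068; p = 0.0129, adjusted p = 0.921, edgeR's quasi-likelihood test).

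Against the choroid plexus markers, Adamts8 had Pearson's r = 0.455 from mouse to mouse (permutation p = 0.0115, adjusted p = 0.978 over all genes) and Spearman's rho = 0.566 (p = 0.00131, adjusted p = 0.903) over 30 mice, which did not pass after adjustment. Without the 2 mice farthest from the median marker level, mice 11 and 5, r was 0.535, and it was 0.332 within KO and 0.454 within WT mice. No gene tested was called after adjustment for that list (0% of 16481). With the choroid plexus marker level as a covariate the log2 fold change was 0.13 (p = 0.0897, edgeR), which ended the call. Without mouse 11 and with no covariate it was 0.18 (p = 0.0158, adjusted p = 0.919, edgeR). The part of choroid plexus in the Adamts8 difference was not tested beyond this. Exons of Adamts8 share 10.6% of their length with Gm29724 on the opposite strand, which had 0 to 13 counts per mouse.

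Mmp15 (ENSMUSG00000031790, chr8:95352268-95375080, plus strand) encodes a membrane-type MMP that TIMP2 can inhibit. Its lowest, median and highest levels were 16.7, 19.0 and 23.3 CPM in KO and 14.0, 17.8 and 21.0 CPM in WT mice. Here 11 of 13 KO mice lay above the WT median and 1 above the highest WT mouse. With means of 19.1 ± 1.58 and 17.8 ± 1.51 CPM (SD), the log2 fold change was 0.11 (SE 0.043; p = 0.0164, adjusted p = 0.928, edgeR's quasi-likelihood test). Against the choroid plexus markers, Mmp15 had r = 0.160 (permutation p = 0.372) over 30 mice, and its call held with their level as a covariate (log2 fold change 0.11, p = 0.0275, edgeR).

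**Figure D2:**
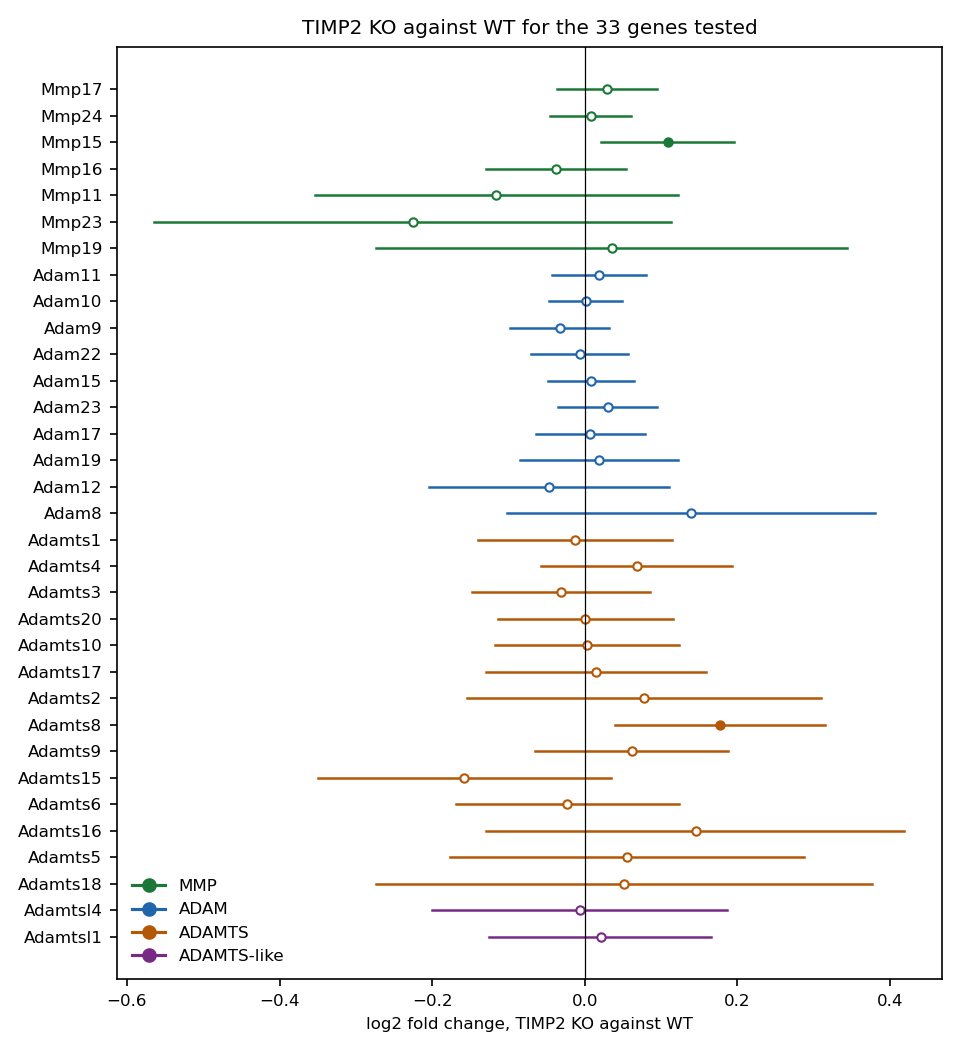
Log2 fold change of TIMP2 KO against WT for each of the 33 members tested (points) with its 95% confidence interval (lines), coloured by family and ordered by level within it. The filled points, Adamts8 at 0.18 and Mmp15 at 0.11, have an unadjusted p under 0.05; the other intervals include 0.

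For the abundant members the interval was narrow. Adam10 lay at a lowest, median and highest level of 103, 108 and 115 CPM in KO and 98.9, 108 and 118 in WT mice, and its log2 fold change was 0.00 with a 95% confidence interval from -0.047 to 0.049. Mmp17 (247, 283 and 321 CPM in KO; 240, 278 and 301 in WT mice) had a log2 fold change of 0.03, with an interval from -0.037 to 0.094. The KO and WT ranges of both genes overlapped.

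Adam11, at 212 to 254 CPM in KO and 206 to 252 in WT mice, had a log2 fold change of 0.02, with an interval from -0.043 to 0.080. Adam9, at 53.3 to 64.1 and 52.5 to 66.4 CPM, had one of -0.03, from -0.098 to 0.032. For Mmp24 (46.9 to 55.7 CPM in KO and 46.4 to 54.9 in WT mice) it was 0.01. None of these 3 passed the test, and their ranges overlapped. Exons of Mmp24 share 13.6% of their length with BC029722 on the opposite strand, which had 893 to 2018 counts per mouse, so part of the Mmp24 count may belong to it.

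The 3 highest ADAMTS genes did not pass the test either. Adamts1 had a log2 fold change of -0.01 (17.1 to 23.8 CPM in KO and 16.7 to 24.8 in WT mice), and Adamts3 one of -0.03 (8.92 to 14.9 and 10.1 to 14.0 CPM). Adamts4 was at 13.6 to 20.2 CPM in KO and 12.2 to 19.5 in WT mice, with a log2 fold change of 0.07 (p = 0.281 before adjustment, edgeR's quasi-likelihood test).

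Bounds were set on the log2 scale at the size of a 10%, 20% or 50% rise, at the same distance above and below 0. The 95% interval lay within the 10% bound for 13 of 33 members, against 9144 of 16486 genes (55.5%). It lay within the 20% bound for 23 of 33 members, against 12825 of 16486 genes (77.8%). All 33 lay within the 50% bound (97.0% of all genes). At the 10% and 20% bounds the share of members was below that of all genes. The 10 members whose interval passed 20% were Adam8, Adamts2, Adamts5, Adamts8, Adamts15, Adamts16, Adamts18, Mmp11, Mmp19 and Mmp23, so a change of over 20% lay within their interval. Mmp23, with 7 to 28 counts per mouse, had the widest interval among the members, from -0.564 to 0.113 on the log2 scale. Between-mouse coefficients of variation, as estimated by edgeR, ran from 4.5% for Adam10 to 21.5% for Adamts16.

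Females and males were compared with genotype in the model. Of 33 members, 3 had an unadjusted p under 0.05 (9.09%), against 9.77% of all genes, and 0 after adjustment, against 0.218% of all genes (DESeq2 gave 3 and 0). Adamts16, a secreted protease of the ADAMTS family, was higher in females by 0.37 on the log2 scale (SE 0.123; p = 0.00452, adjusted p = 0.255, edgeR's quasi-likelihood test). Mmp11 was higher in females by 0.24 (p = 0.0416, edgeR) and Mmp17 lower, with a log2 fold change of -0.07 (p = 0.0360, edgeR); without mouse 11 these had p = 0.0535 and p = 0.0552 in the same edgeR test. Mmp11 is named here after its values were seen, and its exons share 5.58% of their length with Chchd10 on the opposite strand, which had 1937 to 4982 counts per mouse.

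The difference between KO and WT differed between the sexes for 1 of 33 members at an unadjusted p under 0.05 (3.03%), against 2.57% of all genes, and for 0 members after adjustment, against 0% of all genes. That member was Adamts16 (ENSMUSG00000049538, chr13:70727802-70841811, minus strand), at 28 to 97 counts per mouse. Its lowest, median and highest levels were 1.85, 2.33 and 2.58 CPM in KO females, 1.27, 1.59 and 2.86 in WT females, 1.12, 1.36 and 1.52 in KO males and 0.942, 1.63 and 2.10 in WT males. All 7 KO females lay above every KO male and above the WT female median, and all 6 KO males lay below the WT male median, while KO and WT ranges overlapped within each sex.

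The interaction of Adamts16 was 0.64 on the log2 scale (SE 0.225; p = 0.00761, adjusted p = 1.0, edgeR's quasi-likelihood test). In females alone the log2 fold change was 0.40 (p = 0.0220) and in males alone it was -0.24 (p = 0.128), by the same edgeR test. With both sexes pooled it was 0.15 (p = 0.289).

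Fitted within females, 4 of 33 members had an unadjusted p under 0.05, against 5.02% of all genes, and within males 2 of 34 did, against 3.25%. The females' members were Mmp15 (0.17), Adamts8 (0.30) and Adamts16, which were higher in KO, and Mmp16 (-0.12), which was lower. In males they were Mmp17 (0.08) and Adamts15 (-0.31). Mmp16 and Adamts15, a proteoglycan-cutting ADAMTS, are named after their values were seen. The interaction was not past the threshold for Mmp15 (p = 0.231), Adamts8 (p = 0.128), Mmp16 (p = 0.0831), Mmp17 (p = 0.105) or Adamts15 (p = 0.148), so a difference between the sexes was not shown for them (edgeR's quasi-likelihood test).

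**Figure D3:**
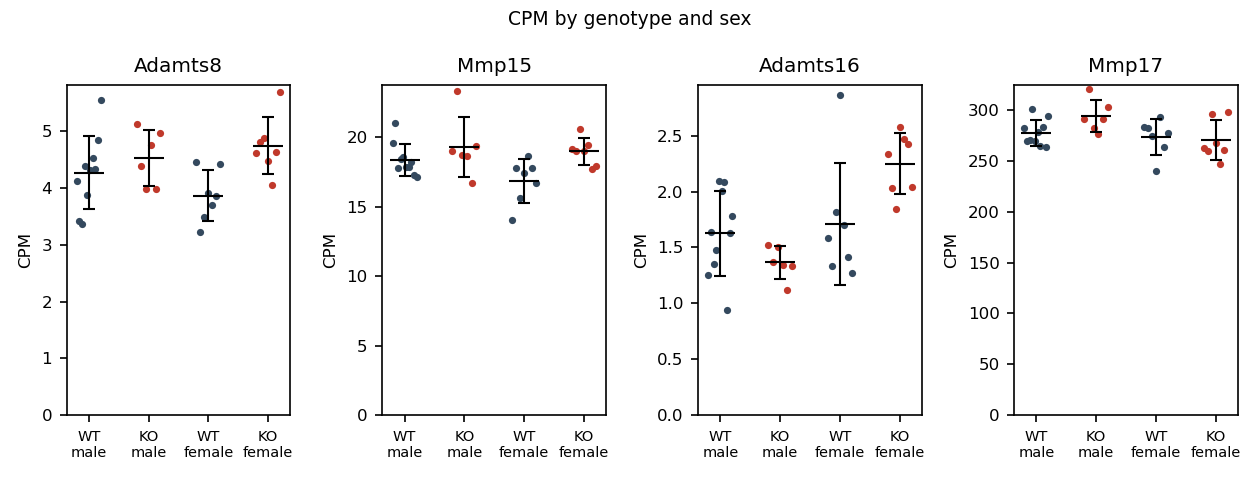
CPM of Adamts8, Mmp15, Adamts16 and Mmp17 in each mouse by genotype and sex, with the mean (wide bar) and SD (whiskers); the axes start at 0. KO females stand above KO males for Adamts16 without overlap (1.85 to 2.58 against 1.12 to 1.52 CPM), and the groups overlap for the other genes.

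Members that lie close together in the genome were set side by side. Adamts8 and Adamts15 lie 20.1 kilobases apart on chromosome 9 on opposite strands, and their log2 fold changes were 0.18 and -0.16, the latter with p = 0.103 (edgeR's quasi-likelihood test). Adamts1 and Adamts5, 53.1 kilobases apart on chromosome 16, had values of -0.01 and 0.05. On chromosome 11, which carries Timp2, the members Adam11, Adamts2 and Adam19 lie 15.52, 67.49 and 72.15 megabases from it and had log2 fold changes of 0.02, 0.08 and 0.02.

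Partners of these proteases were read from lists of inhibitors, activators, trafficking factors and substrates. Of the inhibitors 5 of 7 were tested, and only Timp2 was called among them; Timp3 was at 53.9 to 68.0 CPM in KO and 54.8 to 72.4 in WT mice. Among 7 proteases that remove propeptides or activate MMPs, 1 was lower in KO at an unadjusted p under 0.05 and 0 were higher, where 5.03% of all genes had such a p in either direction, so counts this low in short lists set none of them apart. That gene was Pcsk5, a proprotein convertase, with 10.5, 14.2 and 15.8 CPM as the lowest, median and highest level in KO and 12.8, 15.2 and 17.6 in WT mice, and a log2 fold change of -0.12 (SE 0.051; p = 0.0225, adjusted p = 0.952, edgeR's quasi-likelihood test). Its call ended with the choroid plexus marker level as a covariate (-0.11, p = 0.0516) and in males alone (-0.13, p = 0.110), in the same edgeR test.

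Of 12 proteoglycan and matrix substrates 1 was higher and 0 lower. It was Hapln4, a link protein of the nets around neurons, at 124, 137 and 159 CPM in KO and 112, 135 and 149 in WT mice, with a log2 fold change of 0.08 (SE 0.037; p = 0.0377, adjusted p = 0.978, edgeR's quasi-likelihood test). Its call ended with the choroid plexus covariate (p = 0.0943, edgeR) and with limma voom (p = 0.0511). The call held in edgeR with sex as a covariate (0.095, p = 0.00279, adjusted p = 0.581). It also held with sex and surrogate variables as covariates (0.090, p = 0.000912, adjusted p = 0.309, edgeR). Within females the p was 0.0388 and within males 0.0251 by the same edgeR test, and no adjusted p was under 0.05 in these fits. Hapln4 was also lower in females than in males, with a log2 fold change of -0.13 (SE 0.029; adjusted p = 0.0414, edgeR's quasi-likelihood test). In each list the KO and WT ranges of the genes named, other than Timp2, overlapped. None of the 8 trafficking partners of ADAM10 and ADAM17 tested (of 9), 18 membrane substrates or 8 genes of the LGI1 group had an unadjusted p under 0.05 by edgeR's test.

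Members were also set against the marker level of 4 lists from mouse to mouse. With oligodendrocyte markers (8 genes, summed at 2480 to 4350 CPM over the mice), 2 of 33 members (6.06%) had an adjusted p under 0.05, against 1.2% of all genes. Adamts4 had r = 0.782 (permutation p = 1e-05, the smallest that the permutations can give; adjusted p = 0.00279) and rho = 0.718 (permutation p = 3e-05, adjusted p = 0.00797). Without mice 2 and 9, the farthest from the median marker level, r was 0.698, and it was 0.730 within KO, 0.803 within WT, 0.762 within females and 0.820 within males.

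Adamtsl4, whose protein binds fibrillin and lacks the zinc site, followed the same markers with r = 0.721 (permutation p = 2e-05, adjusted p = 0.00402) and rho = 0.704 (permutation p = 2e-05, adjusted p = 0.00599). Its r was 0.624 without mice 2 and 9, 0.641 within KO and 0.797 within WT mice. The marker sum itself had medians of 3350 CPM in KO and 3330 in WT mice, with overlapping ranges. All 8 markers had a log2 fold change above 0 in KO, and 0 of them had an unadjusted p under 0.05 by edgeR's test.

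No member was called for the endothelial list (0% of all genes) or the immediate early list (0.2% of all genes). The closest were Adamts1 with endothelial markers (r = 0.566, permutation p = 0.00095, adjusted p = 0.298) and Adamts9 with immediate early genes (r = 0.572, permutation p = 0.00121, adjusted p = 0.193), both named after their values were seen.

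**Figure D4:**
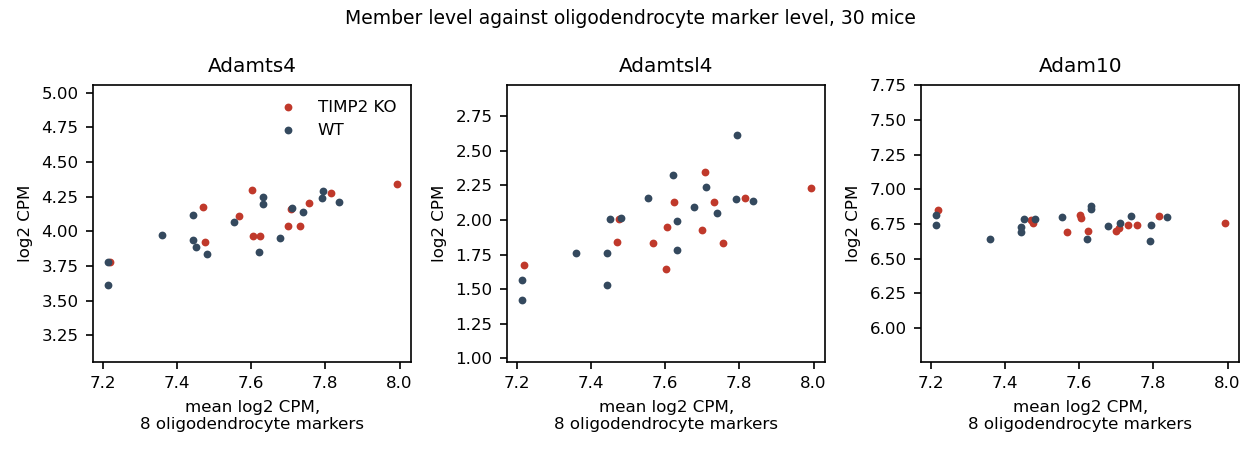
Log2 CPM of Adamts4, Adamtsl4 and Adam10 in each mouse against the mean log2 CPM of 8 oligodendrocyte markers, KO and WT mice in different colours, with vertical axes of equal span. Adamts4 (r = 0.782) and Adamtsl4 (r = 0.721) rise with the markers in both genotypes, and Adam10 is shown for comparison.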

How the data were processed

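Bulk RNA-seq of hippocampus from 30 mice was used. Per the submitters' processing notes, reads were trimmed with Trimmomatic 0.36, aligned to GRCm38 with STAR 2.5.2b and counted with featureCounts (Subread 1.5.2). The authors deposited raw counts per gene, with no normalization. The strand setting and the annotation release were not given in the sources used here, so reads of overlapping genes on opposite strands may not be told apart. Symbols, positions and exon lengths came from GENCODE M21. All 35 members matched.

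With edgeR 4.0.16 in R 4.3.3, TMM factors, filterByExpr and the quasi-likelihood test were applied to all genes, and p-values were adjusted by Benjamini-Hochberg over 16486 genes. KO was compared with WT without covariates, since the study's methods name none for this comparison, and calls were counted at an unadjusted and an adjusted p under 0.05. The methods name the date of harvest or isolation as a batch in their network analysis; these dates are not in the labels used here, and no fit with them was made. Log2 CPM used a prior count of 2. Correlations used 100000 permutations. Genes described with values were members called for genotype or the interaction, members called for sex after adjustment, the 3 highest per kilobase in each family, and called partners. Members and lists were chosen with earlier results of these data known. The fits were tested on simulated data. Alternatives used DESeq2 1.42.0, limma 3.58.1 and sva 3.50.0 with 8 surrogate variables; figures were drawn with matplotlib 3.10.9.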

Additional observations from a re-analysis of the deposited data

Results flagged for a closer look

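Within the groups of 6 to 10 mice of 1 genotype and sex, 132 sets were examined, each holding 1 member in 1 group. In these sets 2 values stood far from the others, where chance gives about 6.6. Adamts6, a secreted ADAMTS protease, was lowest in mouse 3 among KO females, at 0.70 log2 CPM from 50 counts, against 1.03 to 1.27 in the others. Adamtsl4 was lowest in mouse 9 among WT females, at 1.43 log2 CPM from 78 counts, against 1.99 to 2.24 in the others. Mouse 9 also had the lowest summed oligodendrocyte marker level, 2480 CPM.

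For Adamts16, the difference between KO and WT was larger in females than in males by 0.64 on the log2 scale (p = 0.00761, adjusted p = 1.0, edgeR's quasi-likelihood test of the interaction). In females 7 of 7 KO mice lay above the WT median, and in males 6 of 6 lay below it. Without mouse 11 the p was 0.0111 in the same edgeR test.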

How the results depend on the processing

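For KO against WT, 2 of 33 members were called, against 829 of 16486 genes. With the choroid plexus marker level as a covariate 1 of 33 was called, against 708 of 16486 genes. In females alone 4 of 33 were called, against 823 of 16397 genes. The other counts of called members were within 1.5 times the main count. Adamts8 had a log2 fold change of 0.13 with that covariate and 0.08 in males, and Mmp15 one of 0.07 in males, none past the threshold. Log2 fold changes near 0 changed sign for Mmp17 (-0.0155 in females), Mmp24 (-0.00363 with voom, -0.00589 with surrogate variables, -0.0186 in females), Adam10 (-0.0042 with sex as a covariate, -0.00808 with surrogate variables, -0.0236 in females) and Adamts3 (0.0216 with surrogate variables, 0.00621 in males); the cause was not tested. Without a filter, 1971 of 33550 genes tested had an unadjusted p under 0.05 for KO against WT, against 829 of 16486 with it. Without mouse 11, 2 of 33 members were called for sex, against 1492 of 16527 genes. No paired analysis was possible because the labels hold no number shared between groups. Depth limits the members with few counts: Adam33 and Adamts19 did not pass the main filter, and in the fit of all 35 members without it the same number, 2, was called.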

Other observations

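Mmp15 and Adamts2, a procollagen protease, were set against the oligodendrocyte markers within each genotype and sex. Over the 13 KO mice r was -0.896 for Mmp15 and -0.724 for Adamts2, and over the 17 WT mice it was -0.034 and 0.112. The values also differed by sex, at 0.214 and 0.452 in females and -0.677 and -0.737 in males. Over all 30 mice r was -0.258 (permutation p = 0.167, adjusted p = 0.675) and -0.198 (permutation p = 0.296, adjusted p = 0.782). Both pairs were picked after their values were seen, among 33 members and 4 marker lists, and the differences between genotypes and between sexes were not tested.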
